A study of Mus musculus with 9 samples.

Results

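The immediate early genes followed here were 10 mouse genes, taken by symbol after Ensembl identifiers had been matched to GENCODE M21. They were the AP-1 subunit genes Fos, Fosb, Fosl2, Jun, Junb and Jund, the transcription factor genes Egr1 and Nr4a1, the mRNA decay gene Zfp36, and Ier2. All 10 were among the 55536 genes of the deposited count table, and all 10 passed the filter on low counts that left 13815 genes for testing. The cells sequenced were macrophages derived from wild-type bone marrow (BMDM), grown from the marrow of male mice 6 to 12 weeks old with M-CSF at 25 ng/mL over 6 days. For the last 18 hours they received exosomes released by ApoE-deficient BMDM (EKO-BMDM-exo), exosomes released by wild-type BMDM (WT-BMDM-exo), or PBS, with 2e+09 particles/mL in both exosome groups. Each group had 3 libraries, called biological replicates in the design text. Whether these came from separate mice or separate exosome preparations is not stated in the sources used here, so the spread behind each p-value is that among the libraries and may be technical. The comparisons ask whether macrophage exosomes change the mRNA of recipient macrophages, and whether ApoE in the donor cells makes a difference.

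Immediate early genes are transcribed within minutes of a stimulus, without new protein synthesis, and their mRNAs are short-lived. MAP kinases and calcium or cAMP signals reach their promoters through serum response factor (SRF) with its ternary complex partners, through CREB and related factors, and through AP-1 itself. AP-1 is a dimer of a JUN protein with another JUN, a FOS or an ATF protein. In macrophages these genes are known for their rapid induction by bacterial products, growth factors and adhesion. ZFP36 (tristetraprolin) in turn binds AU-rich elements in short-lived mRNAs and speeds their decay.

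Total counts were 28581306 to 35929596 per library, with 17150 to 18680 genes detected. On the first principal component of log2 CPM (counts scaled to library size), which held 15.8% of the variance, exosome libraries lay at -14.4 to -0.183 and PBS libraries at 9.32 to 19.3. On the second (15.2%), WT-BMDM-exo replicate 2 lay at 25.2 and the other 8 libraries at -12.6 to 6.34. Apoe, the gene missing in the exosome donors of one group, was at 18959 ± 376 CPM in EKO-BMDM-exo, 19766 ± 364 CPM in WT-BMDM-exo and 19326 ± 654 CPM in PBS libraries (SD, n = 3 each). The recipients were wild type in all groups, so this level does not check the donor genotype. All 9 macrophage markers of the list found in the table were expressed, among them Csf1r, the M-CSF receptor, at 3327 ± 97.6, 3471 ± 63.4 and 4051 ± 137 CPM in the same order.

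The promoters of 4 members are shown. Fos, Jun and Junb are AP-1 genes whose mRNA changed in both exosome groups. Nr4a1 had the most negative fold change of the 10 with EKO-BMDM-exo. Zfp36 also changed in both exosome groups, and its promoter is not shown. Each line gives the 250 bases before the RefSeq transcription start in GRCm38.p6, 5′ to 3′ on the strand of the gene. Fos lies on the plus strand at chr12:85473640-85473889, Nr4a1 on the plus strand at chr15:101266596-101266845, Jun on the minus strand at chr4:95052223-95052472 and Junb on the minus strand at chr8:84978749-84978998. None of these stretches overlaps an exon of its gene in GENCODE M21, and that of Nr4a1 lies in an intron of a longer transcript. Capitals mark matches to the motifs searched.
Fos: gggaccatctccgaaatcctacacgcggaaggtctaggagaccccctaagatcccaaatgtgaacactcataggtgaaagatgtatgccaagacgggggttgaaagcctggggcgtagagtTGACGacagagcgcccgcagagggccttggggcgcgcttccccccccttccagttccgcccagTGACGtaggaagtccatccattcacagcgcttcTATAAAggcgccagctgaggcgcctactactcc
Nr4a1: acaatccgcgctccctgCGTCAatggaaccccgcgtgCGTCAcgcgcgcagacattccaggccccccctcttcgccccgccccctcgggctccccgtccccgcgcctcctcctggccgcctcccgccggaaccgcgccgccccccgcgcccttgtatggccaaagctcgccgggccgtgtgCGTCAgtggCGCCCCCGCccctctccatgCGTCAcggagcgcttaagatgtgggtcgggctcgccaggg
Jun: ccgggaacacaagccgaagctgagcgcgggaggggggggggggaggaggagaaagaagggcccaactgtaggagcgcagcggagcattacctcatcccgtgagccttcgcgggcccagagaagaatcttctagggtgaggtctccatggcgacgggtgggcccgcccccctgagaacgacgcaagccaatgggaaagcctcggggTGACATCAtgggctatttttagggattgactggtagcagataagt
Junb: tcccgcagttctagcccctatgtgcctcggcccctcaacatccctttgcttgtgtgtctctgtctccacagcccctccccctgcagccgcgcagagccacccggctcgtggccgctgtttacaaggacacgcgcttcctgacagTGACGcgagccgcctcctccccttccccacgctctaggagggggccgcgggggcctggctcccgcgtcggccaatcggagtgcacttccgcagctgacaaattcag
The motifs were searched on both strands of windows from 250 bases before to 50 bases after the start. They were the half-site of the cAMP response element (CRE, TGACG), the full CRE (TGACGTCA, which contains the half-site), the AP-1 site (TGANTCA), an AP-1-like site (TGACATCA), an EGR site (GCGNGGGCG), the TATA box (TATAAA) and the CArG box bound by SRF. Windows of 8 of the 10 members were taken from the RefSeq table. No window of Egr1 or Ier2 is reported, so the motif tallies do not cover these genes. Jund is left out because its RefSeq start lay 1210 bases before the GENCODE gene, which leaves 7 members.

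The Fos window held 2 CRE half-sites, which began 129 and 66 bases before the start, and a TATA box 33 bases before it. The Nr4a1 window held 4 half-sites, all on the minus strand, and an EGR site. Windows with at least 4 half-sites made up 0.231% of the 32851 windows in the table, and windows with any half-site 20.8%. The Jun window held no half-site but an AP-1-like site 45 bases before the start, which 3.62% of all windows hold. The Junb window held a half-site 106 bases before the RefSeq start and a TATA box at that start, which lies 30 bases before the start in GENCODE. A TATA box was in 13.6% of all windows, the full CRE in 1.79% and the AP-1 site in 7.81%. None of the 7 member windows held either of these last motifs. The Zfp36 window held an EGR site 105 bases before the start and the only CArG box of the 7, 58 bases before it. EGR sites stood in 4 of the 7 windows (Fosb, Fosl2, Nr4a1 and Zfp36) and in 5.55% of all windows, and CArG boxes in 1.63%. The EGR motif is made of G and C, and the set of all windows was not matched for GC content. The 4 windows with an EGR site were 63.7% to 72.3% GC, and those of Fos, Jun and Junb 58.7% to 65.3%. A match describes the letters of the window and shows no binding, and no match says nothing of the factor. The windows of Fosl2 and Zfp36 lie within a first exon in GENCODE M21.

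**Figure D1:**
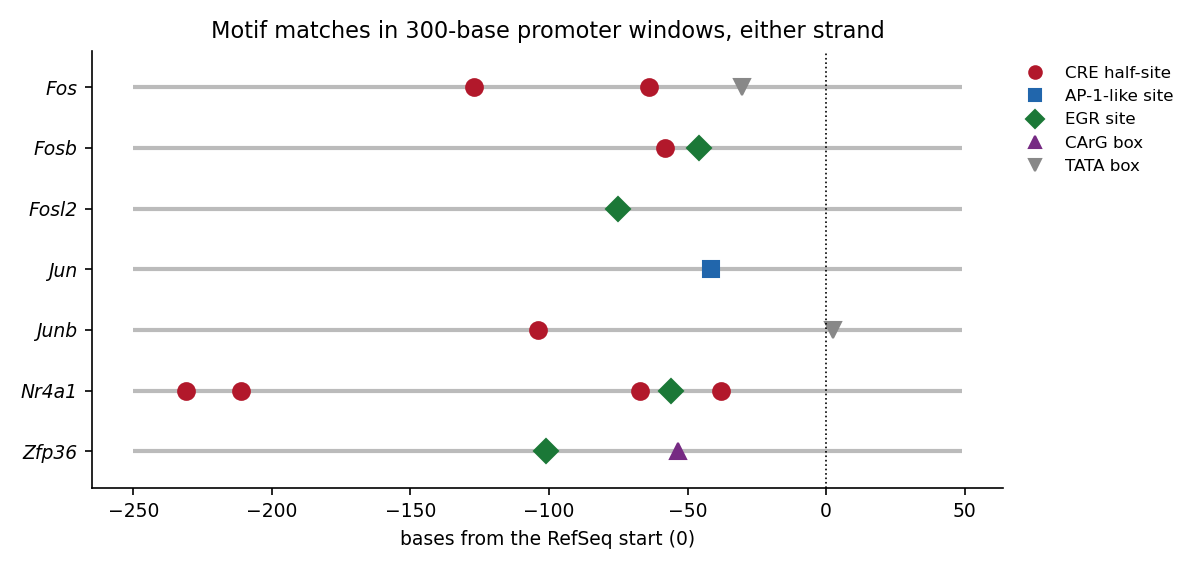
Motif matches in the promoter windows of 7 immediate early genes, by distance in bases from the RefSeq start (dotted line at 0). Each symbol is a match on either strand. Within these windows Nr4a1 carries 4 CRE half-sites, Fos 2, Fosb and Junb 1 each, and Zfp36 the only CArG box. Sites further from the start were not searched.

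Against PBS, 7 of the 10 genes changed with EKO-BMDM-exo (edgeR adjusted p under 0.05). Fos, Fosl2, Junb, Egr1, Nr4a1 and Zfp36 fell, and Jun rose. With WT-BMDM-exo 4 changed: Fos, Junb and Zfp36 fell, and Jun rose. Of all genes tested, 4.23% were called with EKO-BMDM-exo (1.82% higher and 2.41% lower) and 4.11% with WT-BMDM-exo (1.93% higher and 2.18% lower). Between the exosome groups none of the 10 was called, where 0.695% of all genes were. The test of any difference among the 3 groups called 6 members (Fos, Jun, Junb, Egr1, Nr4a1 and Zfp36) and 5.28% of all genes. The median log2 fold change of the members was -0.21 with EKO-BMDM-exo and -0.10 with WT-BMDM-exo, where the median of all genes was -0.00052 and -0.0033. The members were chosen with earlier results of these data known, so the shares of members and of all genes are not an independent comparison. Except for Fosb, Egr1 and Nr4a1, the members also lay above the median level of all genes tested, 18.0 CPM. Levels were not matched. Both exosome groups were set against the same PBS libraries. In bulk RNA, fewer cells of a type and less RNA per cell cannot be told apart.

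**Figure D2:**
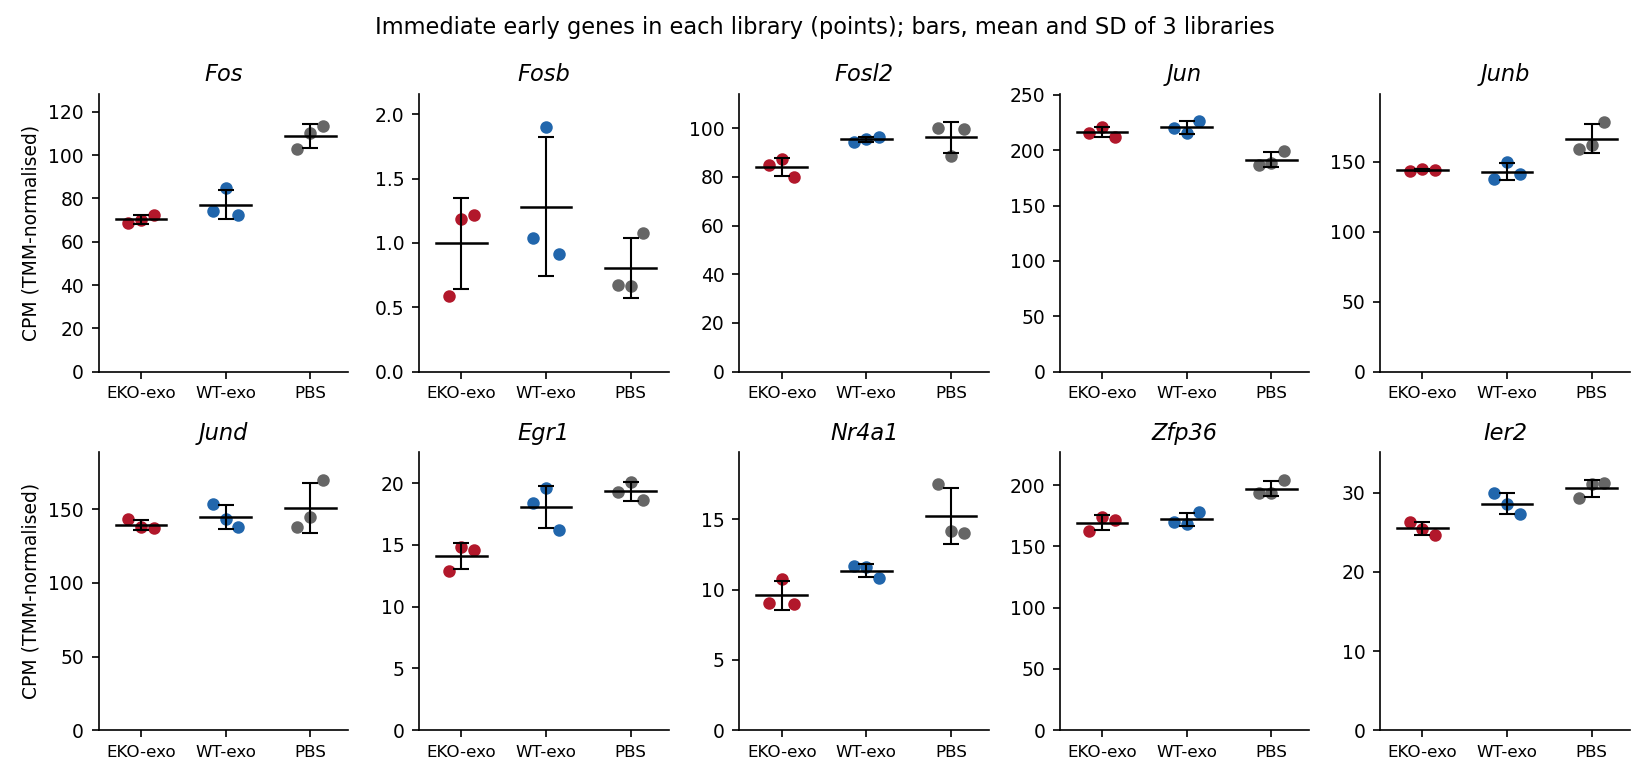
TMM-normalised CPM of each of the 10 genes in every library (points), with the mean and SD of the 3 libraries of a group (lines and bars); each vertical axis starts at 0. Fos lies at 68.6 to 72.3 CPM with EKO-BMDM-exo and 72.3 to 84.7 CPM with WT-BMDM-exo, below the 103 to 114 CPM of PBS, and Jun is the only gene whose exosome libraries all lie above its PBS libraries.

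Among the FOS proteins, which cannot pair with themselves and need a JUN partner, Fos is the classic subunit, made within minutes of stimulation (chr12:85473890-85477273, plus strand, 4 merged exons). For every member, the exon count is of exons merged over all its transcripts in GENCODE M21, and single transcripts can have other numbers. Fos was at 68.6, 69.8 and 72.3 CPM in EKO-BMDM-exo libraries 1 to 3, at 74.3, 84.7 and 72.3 CPM in WT-BMDM-exo libraries, and at 103, 110 and 114 CPM in PBS libraries. All 6 exosome libraries lay below all 3 PBS libraries, and the EKO-BMDM-exo libraries lay just below the WT-BMDM-exo libraries, the closest pair both at 72.3. The log2 fold change was -0.63 ± 0.062 (SE, 95% interval -0.76 to -0.51, adjusted p = 5.4e-09) for EKO-BMDM-exo against PBS, so Fos fell by 35.5%. It was -0.50 ± 0.062 (-0.62 to -0.37, adjusted p = 8.26e-07) for WT-BMDM-exo against PBS, and Fos fell by 29.2%. The difference between the exosome groups was -0.13 ± 0.063 (-0.26 to -0.0070) and did not pass the threshold (adjusted p = 0.564).

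Fosl2 encodes FRA2, a FOS protein without the strong activation domain of FOS (chr5:32135801-32157842, plus strand, 4 exons). Its levels were 85.1, 87.3 and 80.0 CPM with EKO-BMDM-exo, 94.2, 95.8 and 96.4 CPM with WT-BMDM-exo, and 100.1, 88.8 and 99.9 CPM with PBS. The EKO-BMDM-exo libraries lay below both other groups, which overlapped each other. Fosl2 fell with EKO-BMDM-exo by 0.19 ± 0.058 on the log2 scale (adjusted p = 0.0477). This call rests on a narrow margin: it ended in the fit of the 6 libraries compared (0.0561) and without any of 8 single libraries. Those were EKO-BMDM-exo replicates 1 (adjusted p = 0.106), 2 (0.0701) and 3 (0.269), WT-BMDM-exo replicates 1 (0.0516), 2 (0.0592) and 3 (0.0585), and PBS replicates 1 (0.222) and 3 (0.186). With WT-BMDM-exo the difference from PBS was -0.01 ± 0.058 (-0.13 to 0.11, adjusted p = 0.968). Between the exosome groups it was -0.18 ± 0.058 (-0.30 to -0.064, adjusted p = 0.208).

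Fosb was barely expressed (chr7:19302696-19310051, minus strand, 2 merged exons), with 20 to 58 counts per library. It was at 0.588, 1.19 and 1.22 CPM with EKO-BMDM-exo, 1.04, 1.90 and 0.914 CPM with WT-BMDM-exo, and 0.675, 0.669 and 1.08 CPM with PBS. The groups overlapped. Its log2 fold change against PBS was 0.30 ± 0.60 with EKO-BMDM-exo and 0.66 ± 0.60 with WT-BMDM-exo. The intervals ran from -0.92 to 1.52 and from -0.55 to 1.88, so a change of the size seen for Fos was not detectable at this depth.

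JUN proteins can pair with each other as well as with FOS. Jun, a strong activator that also drives its own transcription, was the only member called higher against PBS (chr4:95049034-95052222, minus strand, 1 exon). Jun was at 215, 221 and 212 CPM with EKO-BMDM-exo, 220.2, 215 and 226 CPM with WT-BMDM-exo, and 187, 188 and 199.7 CPM with PBS. All exosome libraries lay above all PBS libraries, and the exosome groups overlapped. Jun rose by 0.18 ± 0.041 on the log2 scale with EKO-BMDM-exo (95% interval 0.092 to 0.26, adjusted p = 0.00609). It rose by 0.20 ± 0.041 with WT-BMDM-exo (0.12 to 0.29, adjusted p = 0.00131). The difference between the exosomes was -0.03 ± 0.041 (-0.11 to 0.055, adjusted p = 0.941). Of the exon length of Jun, 7.28% overlaps the antisense gene Junos, which had 18 to 85 counts per library against 5531 to 7695 for Jun.

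Junb encodes a weaker activator that can oppose JUN on some promoters (chr8:84974484-84978718, minus strand, 3 merged exons). Junb was at 144, 145 and 144 CPM with EKO-BMDM-exo, 138, 149.6 and 142 CPM with WT-BMDM-exo, and 159, 162 and 179 CPM with PBS. Every exosome library lay below every PBS library. Junb fell by 0.21 ± 0.048 on the log2 scale with EKO-BMDM-exo (adjusted p = 0.00545) and by 0.22 ± 0.048 with WT-BMDM-exo (adjusted p = 0.00323). Without PBS replicate 3, the highest library, the first of these calls ended (adjusted p = 0.0822). The difference between the exosomes was 0.01 ± 0.048 (-0.085 to 0.11, adjusted p = 0.978). Prdx2, on the opposite strand, overlaps 7.52% of the exon length of Junb and had 2192 to 3223 counts per library, against 4148 to 6308 for Junb.

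Jund is the JUN gene least dependent on stimulation (chr8:70698949-70700616, plus strand, 1 exon). It was at 143, 138 and 137 CPM with EKO-BMDM-exo, 154, 143 and 138 CPM with WT-BMDM-exo, and 138, 145 and 169.98 CPM with PBS. The groups overlapped, and PBS replicate 3 stood highest. The log2 fold change against PBS was -0.11 ± 0.056 with EKO-BMDM-exo (-0.23 to 0.0017, adjusted p = 0.394) and -0.06 ± 0.056 with WT-BMDM-exo (-0.17 to 0.055, adjusted p = 0.748). The antisense gene Gm11175 overlaps 52.6% of its exon length and had 89 to 160 counts, against 3957 to 6001 for Jund. Whether the counting used strand is not stated, so the reads of these overlapping pairs cannot be assigned with certainty.

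**Figure D3:**
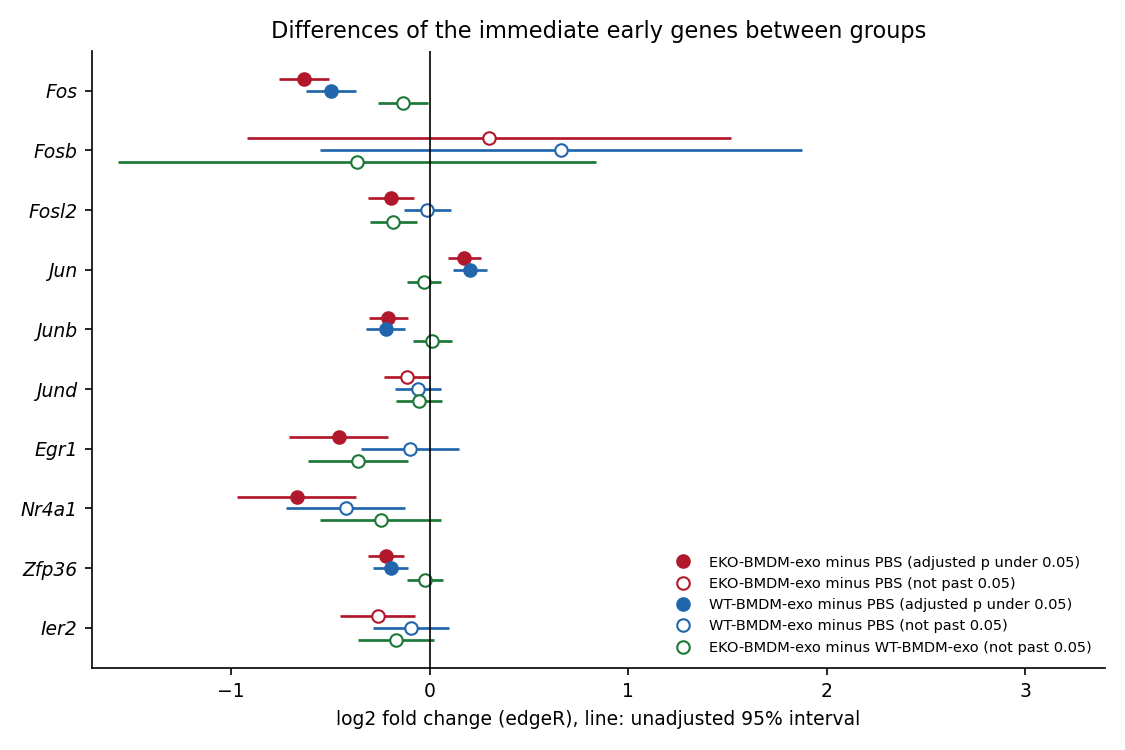
The log2 fold changes of the 10 genes (edgeR, all 9 libraries) with unadjusted 95% intervals; filled points passed an adjusted p of 0.05 and open points did not. Fos stands at -0.63 and -0.50 against PBS and Jun at 0.18 and 0.20, while every point of the comparison between the exosomes is open.

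Egr1 encodes a zinc finger activator that is induced through SRF sites (2 exons). It was at 12.9, 14.8 and 14.6 CPM with EKO-BMDM-exo, 18.4, 19.6 and 16.2 CPM with WT-BMDM-exo, and 19.3, 20.1 and 18.6 CPM with PBS. The EKO-BMDM-exo libraries lay below all others, while the WT-BMDM-exo and PBS libraries overlapped. Egr1 fell with EKO-BMDM-exo by 0.46 ± 0.12 on the log2 scale (adjusted p = 0.0214). The call ended without EKO-BMDM-exo replicate 1 (0.148) or 3 (0.0542) and without PBS replicate 1 (0.0600) or 2 (0.0996). With WT-BMDM-exo its log2 fold change against PBS was -0.10 ± 0.12 (-0.35 to 0.15, adjusted p = 0.826). The difference between the exosomes was -0.36 ± 0.12 (-0.61 to -0.11). It did not pass the threshold (adjusted p = 0.274).

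Nr4a1 encodes the orphan nuclear receptor NUR77, known to restrain inflammatory gene expression in macrophages (chr15:101254269-101274795, plus strand, 10 exons). It was at 9.07, 10.8 and 8.95 CPM with EKO-BMDM-exo, 11.7, 11.6 and 10.8 CPM with WT-BMDM-exo, and 17.6, 14.2 and 14.0 CPM with PBS. The groups did not overlap: EKO-BMDM-exo lay lowest, WT-BMDM-exo next and PBS highest, although the highest EKO-BMDM-exo and the lowest WT-BMDM-exo library were both at 10.8. Nr4a1 fell with EKO-BMDM-exo by 0.67 ± 0.15 on the log2 scale (95% interval -0.97 to -0.37, adjusted p = 0.00331). Without PBS replicate 1, the highest library, the adjusted p was 0.0505. With WT-BMDM-exo the difference of -0.42 ± 0.15 (-0.72 to -0.12) did not pass the threshold (adjusted p = 0.109). The difference between the exosomes was -0.25 ± 0.15 (-0.55 to 0.056, adjusted p = 0.733).

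Zfp36 encodes the decay factor tristetraprolin (chr7:28376784-28380253, minus strand, 1 merged exon). It was at 163, 174 and 171 CPM with EKO-BMDM-exo, 169.6, 168 and 178 CPM with WT-BMDM-exo, and 194, 193 and 204 CPM with PBS. All exosome libraries lay below all PBS libraries, and the exosome groups overlapped. Zfp36 fell by 0.22 ± 0.044 on the log2 scale with EKO-BMDM-exo (adjusted p = 0.00105) and by 0.20 ± 0.044 with WT-BMDM-exo (adjusted p = 0.00437). The difference between the exosomes was -0.02 ± 0.044 (-0.11 to 0.066, adjusted p = 0.961). Gm44710 on the opposite strand overlaps 3.60% of its exon length and had 11 to 51 counts.

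Ier2 encodes a small nuclear protein induced with the AP-1 genes (chr8:84661331-84662852, minus strand, 1 exon). It was at 26.3, 25.5 and 24.7 CPM with EKO-BMDM-exo, 30.0, 28.6 and 27.3 CPM with WT-BMDM-exo, and 29.4, 31.2 and 31.2 CPM with PBS. The EKO-BMDM-exo libraries lay below all others, and the other groups overlapped. The log2 fold change of -0.26 ± 0.094 for EKO-BMDM-exo against PBS did not pass the threshold (95% interval -0.45 to -0.071, adjusted p = 0.133). With WT-BMDM-exo it was -0.09 ± 0.094 (-0.29 to 0.096, adjusted p = 0.766), and between the exosomes -0.17 ± 0.094 (-0.36 to 0.024, adjusted p = 0.696).

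Counted by overlap of libraries, 7 members lay wholly below PBS and 1 wholly above it with EKO-BMDM-exo, where 18.3% of all genes did not overlap in either direction. With WT-BMDM-exo 4 lay wholly below PBS and 1 above, where 17.5% of all genes did not overlap. Between the exosomes 5 members (Fos, Fosl2, Egr1, Nr4a1 and Ier2) lay wholly below in EKO-BMDM-exo and none above, where 14.0% of all genes did not overlap. For Fos and Nr4a1 this separation was close to a tie, with the nearest libraries of both groups at 72.3 CPM for Fos and 10.8 CPM for Nr4a1. None of these 5 passed the test, and the median log2 difference of the 10 members was -0.15 against 0.00019 for all genes. At an unadjusted edgeR p under 0.05, 3 of the 10 members (Fos, Fosl2 and Egr1) and 1126 of the 13815 genes tested differed between the exosomes. DESeq2 and limma-voom also called none of the members. Apart from Fosb, at 0.35, the members' spread between libraries of a group was 0.041 to 0.14 (SD of log2 CPM), where the median of all genes tested was 0.15. Levels were not matched here: these members lay at 12.1 (Nr4a1) to 209 CPM (Jun), and the median of all genes tested was 18.0 CPM.

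The balance between AP-1 subunits was compared per length, as counts per kb of exon. The order of levels with EKO-BMDM-exo was Jund at 83.7 CPM per kb, Jun at 67.8, Junb at 62.7, Zfp36 at 48.8, Fos at 29.9, Ier2 at 16.7, Fosl2 at 8.69, Egr1 at 3.14, Nr4a1 at 2.73 and Fosb at 0.160. Only the libraries of Egr1 and Nr4a1 overlapped between neighbours in this order. With WT-BMDM-exo the order was the same and no neighbours overlapped. With PBS, Junb stood above Jun at 72.4 and 60.0 CPM per kb, Jun overlapped Zfp36 at 56.8, and Nr4a1 overlapped Egr1. Jun thus stood above Junb in each of the 6 exosome libraries and below it in each of the 3 PBS libraries.

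The ratio of Junb to Jun was 0.925, 0.908 and 0.940 in EKO-BMDM-exo libraries, 0.866, 0.963 and 0.867 in WT-BMDM-exo libraries, and 1.18, 1.19 and 1.24 in PBS libraries. The ratio of Fos to Jun was 0.432, 0.428 and 0.462 with EKO-BMDM-exo, 0.458, 0.534 and 0.434 with WT-BMDM-exo, and 0.745, 0.795 and 0.771 with PBS. Neither ratio overlapped between an exosome group and PBS, and both overlapped between the exosome groups. The exact permutation test of 3 libraries against 3 gave p = 0.1 (two-sided) for each ratio in each exosome group against PBS, which is the smallest value this design allows, and p = 0.4 between the exosome groups. The ratio of the FOS genes (Fos, Fosb and Fosl2) to the JUN genes averaged 0.181 ± 0.0046 with EKO-BMDM-exo, 0.197 ± 0.013 with WT-BMDM-exo and 0.253 ± 0.0092 with PBS (SD, n = 3 each). It did not overlap between any pair of groups, at 0.176 to 0.185 with EKO-BMDM-exo, 0.188 to 0.212 with WT-BMDM-exo and 0.243 to 0.260 with PBS, and each of the 3 pairs gave the smallest exact permutation p of 0.1 (two-sided). Fos itself made up 77.1% ± 1.13, 76.4% ± 1.35 and 82.1% ± 1.40 of the FOS sum in these groups. These ratios were chosen after the levels had been seen, and where a ratio stands relative to 1 depends on the exon lengths used.

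**Figure D4:**
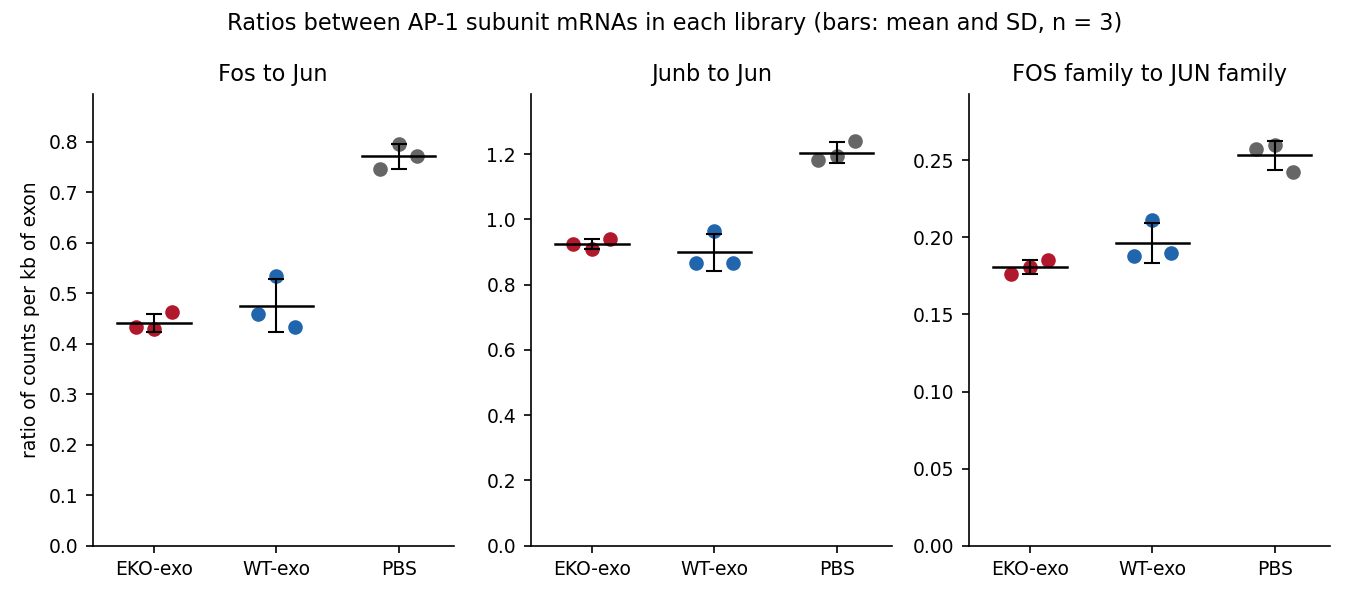
Ratios of AP-1 subunit mRNAs per kb of exon in each library (points), with mean and SD of 3 libraries; vertical axes start at 0. Fos to Jun is 0.428 to 0.534 in the 6 exosome libraries and 0.745 to 0.795 in the PBS libraries, and Junb to Jun crosses 1 between them.

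Genes with profiles most like the called members were sought over the 9 libraries, as the smallest root-mean-square difference of log2 CPM centred on each gene's mean. Nearest to Fos were Cx3cr1, the fractalkine receptor, at 0.086, Tifab at 0.090, and Nfkbie, an inhibitor of NF-kappaB, at 0.096. Cx3cr1 fell by 0.65 ± 0.039 on the log2 scale with EKO-BMDM-exo and by 0.62 ± 0.039 with WT-BMDM-exo (adjusted p = 2.76e-14 and 1.46e-13). As it was picked for its likeness to Fos in these same libraries, a similar fall follows from the choice and is no separate evidence. Nearest to Nr4a1 were C3, the complement component, at 0.083, Fancd2 at 0.096 and Tlr2, a receptor for bacterial lipoproteins, at 0.10. For Jun they were Ahnak2, Pdxk and Chmp2b (0.028 to 0.031), for Junb Susd3, Ppp1r21 and Ptpn6 (0.041 to 0.047), for Egr1 Slc25a14, Ifi47 and Traf3ip1 (0.076 to 0.090), and for Zfp36 Txnip, Adssl1 and Ucp2 (0.034 to 0.036). No other member was among the 3 nearest of any of these 6 genes. Not every neighbour was itself called. With EKO-BMDM-exo against PBS, Fancd2, Chmp2b, Susd3, Ppp1r21 and the 3 nearest to Egr1 were not called (edgeR adjusted p 0.0635 to 0.693).

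Of 14 other AP-1 family and partner genes tested, 1 rose and 2 fell with EKO-BMDM-exo, and none rose and 2 fell with WT-BMDM-exo. That was 21.4% and 14.3% of the list, where 4.23% and 4.11% of all genes were called. The median log2 fold change of the list was 0.058 with EKO-BMDM-exo and -0.016 with WT-BMDM-exo. Maf, which encodes a basic leucine zipper factor of differentiated macrophages, fell with EKO-BMDM-exo by 0.24 ± 0.033 on the log2 scale (adjusted p = 2.95e-06). Maf also fell with WT-BMDM-exo, by 0.16 ± 0.033 (adjusted p = 0.00125). Atf4, the translationally controlled factor of the integrated stress response, was at 133, 140 and 129 CPM with EKO-BMDM-exo, 89.6, 94.2 and 99.2 CPM with WT-BMDM-exo, and 117, 118 and 118 CPM with PBS. Its libraries did not overlap between any pair of groups. Atf4 fell with WT-BMDM-exo by 0.32 ± 0.052 (adjusted p = 7.74e-05) and was 0.51 ± 0.052 higher with EKO-BMDM-exo than with WT-BMDM-exo (adjusted p = 6.97e-08). It rose with EKO-BMDM-exo against PBS by 0.19 ± 0.051 (adjusted p = 0.0238), a call that ended without EKO-BMDM-exo replicate 1 or 2 or any PBS replicate (adjusted p 0.0573 to 0.191).

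Of 27 other immediate early genes tested, 1 fell and none rose with EKO-BMDM-exo, and 2 rose and none fell with WT-BMDM-exo. That was 3.70% and 7.41% of the list, where 4.23% and 4.11% of all genes were called. The gene that fell was Id3, an inhibitor of basic helix-loop-helix factors, by 0.24 ± 0.059 (adjusted p = 0.00953), a call that ended without EKO-BMDM-exo replicate 1 (0.0702) or PBS replicate 3 (0.147). Those that rose were Id2 (0.17 ± 0.041, adjusted p = 0.00921) and Rhob (0.18 ± 0.048, adjusted p = 0.0188), and the call of Rhob ended without PBS replicate 1 or 2 or WT-BMDM-exo replicate 2 (0.0891 to 0.148). Ier3, an early gene with anti-apoptotic activity, had a log2 fold change of -0.71 ± 0.22 with EKO-BMDM-exo that did not pass the threshold (adjusted p = 0.0593). The median log2 fold change of these 27 genes was -0.06 with EKO-BMDM-exo and -0.03 with WT-BMDM-exo.

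Of 14 upstream factors of the SRF, ternary complex and CREB groups, 1 rose with EKO-BMDM-exo and none fell, and 1 rose and 2 fell with WT-BMDM-exo. That was 7.14% and 21.4% of the list, where 4.23% and 4.11% of all genes were called. The gene that rose was Mrtfb, an actin-regulated SRF coactivator, at 219.96, 220.2 and 235 CPM with EKO-BMDM-exo, 208, 197 and 221 CPM with WT-BMDM-exo, and 191, 189 and 175 CPM with PBS. Both exosome groups lay above PBS. Mrtfb rose by 0.28 ± 0.045 with EKO-BMDM-exo (adjusted p = 4.27e-05) and by 0.17 ± 0.045 with WT-BMDM-exo (adjusted p = 0.0170), and the second call ended without PBS replicate 3 (0.127) or WT-BMDM-exo replicate 3 (0.165). With WT-BMDM-exo Crem, which encodes a CRE-binding factor, fell by 0.55 ± 0.15 (adjusted p = 0.0261), and Ep300, a histone acetyltransferase, fell by 0.12 ± 0.035 (adjusted p = 0.0446). The call of Crem ended without PBS replicate 1 or 2 or WT-BMDM-exo replicate 2 or 3 (0.0678 to 0.143). That of Ep300 ended without any of 7 libraries, which were all but PBS replicate 3 and WT-BMDM-exo replicate 1 (0.0595 to 0.271), and under 2 of the other settings.

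Of 18 MAP kinase genes, Rps6ka1, a kinase downstream of ERK, fell with EKO-BMDM-exo by 0.16 ± 0.045 (adjusted p = 0.0291) and with WT-BMDM-exo by 0.18 ± 0.045 (adjusted p = 0.0117), and the other 17 were not called in either comparison. The first call ended without any EKO-BMDM-exo replicate or PBS replicate 1 or 3 (0.0654 to 0.181), and the second without PBS replicate 3 or WT-BMDM-exo replicate 2 or 3 (0.0667 to 0.111). The MAP kinase calls were 5.56% of their list in each comparison, where 4.23% of all genes were called with EKO-BMDM-exo and 4.11% with WT-BMDM-exo. Of 17 feedback inhibitors tested, 2 rose and 1 fell with EKO-BMDM-exo, and 1 rose with WT-BMDM-exo. That was 17.6% and 5.88% of the list. Dusp1, a phosphatase that inactivates p38 and JNK and is itself an immediate early gene, was at 45.5, 46.4 and 45.4 CPM with EKO-BMDM-exo, 46.1, 53.7 and 49.9 CPM with WT-BMDM-exo, and 60.9, 60.2 and 52.7 CPM with PBS. Its EKO-BMDM-exo libraries lay below all PBS libraries, and WT-BMDM-exo replicate 2 lay within the PBS range. Dusp1 fell by 0.34 ± 0.077 with EKO-BMDM-exo (adjusted p = 0.00442), and its log2 fold change with WT-BMDM-exo was -0.22 (adjusted p = 0.124). Dusp3, an ERK and JNK phosphatase, rose by 0.17 ± 0.033 with EKO-BMDM-exo and by 0.15 ± 0.033 with WT-BMDM-exo (adjusted p = 0.00113 and 0.00366). Dusp4 rose by 0.41 ± 0.097 with EKO-BMDM-exo (adjusted p = 0.00735), a call that ended without EKO-BMDM-exo replicate 1 (0.0776) or PBS replicate 2 (0.101).

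Of 16 genes for AU-rich element binding and mRNA decay, 1 fell with EKO-BMDM-exo and 2 fell with WT-BMDM-exo, and none rose. That was 6.25% and 12.5% of the list, where 4.23% and 4.11% of all genes were called. Zfp36l1, a paralogue of Zfp36 with the same kind of RNA-binding zinc fingers, was at 174, 176 and 176 CPM with EKO-BMDM-exo, 191, 201 and 219.8 CPM with WT-BMDM-exo, and 229, 235 and 225 CPM with PBS. The groups did not overlap, with EKO-BMDM-exo lowest. Zfp36l1 fell by 0.39 ± 0.044 with EKO-BMDM-exo (adjusted p = 1.13e-07) and by 0.17 ± 0.044 with WT-BMDM-exo (adjusted p = 0.0159). It was lower with EKO-BMDM-exo than with WT-BMDM-exo, at -0.22 ± 0.044 (adjusted p = 0.00537). The call with WT-BMDM-exo ended without PBS replicate 2 or WT-BMDM-exo replicate 1 or 2 (0.0821 to 0.163), and that between the exosomes without EKO-BMDM-exo replicate 1 (0.0501) or WT-BMDM-exo replicate 3 (0.150). Zfp36l2, the other paralogue, fell with WT-BMDM-exo by 0.19 ± 0.043 (adjusted p = 0.00501), a call that ended without WT-BMDM-exo replicate 2 (0.0679).

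**Figure D5:**
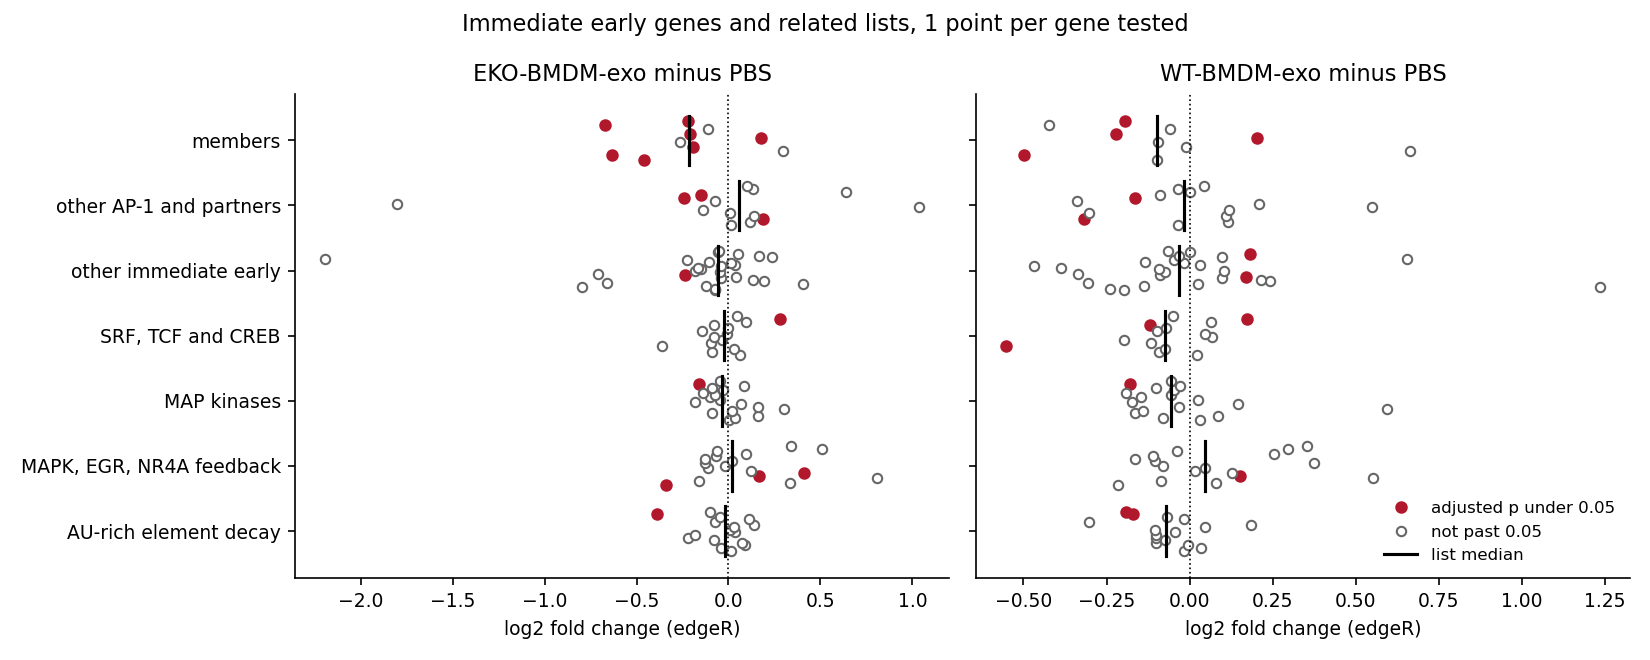
The log2 fold changes of the 10 immediate early genes (top) and of 6 lists of related genes against PBS, with 1 point per gene tested, filled where the adjusted p was under 0.05; vertical bars are list medians. The bar of the members stands at -0.21 with EKO-BMDM-exo and -0.10 with WT-BMDM-exo, and the medians of the other lists lie between -0.07 and 0.06.

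Most macrophage markers also differed from PBS. Of the 9 tested, 7 fell with EKO-BMDM-exo, and 6 fell and 1 rose with WT-BMDM-exo, and none was at 0. That was 77.8% of the list in each comparison, where 4.23% and 4.11% of all genes were called. The marker that rose was Cd68, at 2666 ± 89.3 CPM with WT-BMDM-exo and 2497 ± 40.0 CPM with PBS (SD, n = 3 each). Its log2 fold change was 0.094, a call that ended without any of 4 libraries and under 3 other settings. The summed level of the 9 was 20963 to 21947 CPM with EKO-BMDM-exo, 21195 to 21856 CPM with WT-BMDM-exo and 22876 to 24118 CPM with PBS, of which Lyz2 made up 60.4%. Csf1r fell by 0.28 ± 0.027 with EKO-BMDM-exo and by 0.22 ± 0.027 with WT-BMDM-exo (adjusted p = 2.35e-09 and 4.54e-07). Cd14, the lipopolysaccharide co-receptor, fell by 0.37 ± 0.040 and 0.36 ± 0.040 (adjusted p = 5.00e-08 and 1.10e-07). Summed neutrophil markers were at 3.78 to 18.3 CPM with EKO-BMDM-exo, 10.4 to 30.7 CPM with WT-BMDM-exo and 21.1 to 30.3 CPM with PBS. None of the 5 neutrophil markers tested was called, and none of the 10 was at 0 in all libraries. Their part in the results, and that of the macrophage markers, was not tested.

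Of the markers of 7 further cell types, 2 were called. Vwf, an endothelial gene, rose by 0.41 ± 0.050 with EKO-BMDM-exo and 0.33 ± 0.050 with WT-BMDM-exo (adjusted p = 3.36e-07 and 2.22e-05). It made up 91.2% of the endothelial sum of 199 to 206 CPM with EKO-BMDM-exo, 179.9 to 206 CPM with WT-BMDM-exo and 145 to 168 CPM with PBS, and Emcn of that list was at 0. Of the 4 endothelial markers tested, 2 had a positive and 2 a negative log2 fold change in each exosome group against PBS. Their median was -0.32 with EKO-BMDM-exo and 0.070 with WT-BMDM-exo. Ighm fell with WT-BMDM-exo by 0.47 ± 0.11 (adjusted p = 0.00739) and made up 97.8% of the B cell sum of 39.5 to 55.9, 29.1 to 40.1 and 47.0 to 50.3 CPM in the same order, with Cd79a and Igkc at 0. Sums of T and NK cell, dendritic, mast cell and erythroid markers were at most 8.88 CPM in any library, and fibroblast markers reached 64.6 CPM in 1 PBS library, with Col1a1 as 54.3% of that list. The part of these markers in the results was not tested.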

How the data were processed

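The authors' deposited table gives raw counts per gene, and 0 further columns of per-sample values were left unused. The submitters' processing notes list the aligner STAR (2.7.5c) and the build GRCm38. The sources used here do not give the annotation, trimming or strand setting. Total RNA and an mRNA library kit were used, per the labels' protocols. The members, the lists of related genes and the tests were chosen with earlier results of these data known. Genes with low counts were removed (filterByExpr, minimum count 10), libraries were scaled by TMM, and edgeR 4.0.16 in R 4.3.3 fitted a quasi-likelihood model with the group as its only term to all 9 libraries. Benjamini-Hochberg adjustment ran over 13815 genes, with calls at an adjusted p under 0.05, and the biological coefficient of variation was 12.0%. SEs and 95% intervals are those of single genes, and the intervals are not adjusted. CPM are TMM-scaled, levels per kb use merged exons of GENCODE M21, and ± beside a log2 fold change is an SE. The fits were tested on simulated data.

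All 10 members were named, in other lists up to 4 genes with the lowest p per comparison, and for members with any difference the 3 nearest profiles. Marker genes beyond that number were not named, apart from Cd68. A result for 1 gene of the related lists is not reported here. Pairs of libraries were checked for duplicates by a chi-square statistic per gene, which lay between 6.85 and 10.4 for pairs of the same group and between 7.84 and 19.1 for other pairs, so none was dropped. Alternatives were RLE size factors, library totals, no filter, DESeq2 1.42.0, limma-voom 3.58.1, the 6 libraries compared alone, a replicate block, and each library left out. Promoter windows came from the RefSeq table of GRCm38.p6 and leave out Egr1 and Ier2. A window was used where its start lay inside the GENCODE gene or at most 100 bases before it.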

Additional observations from a re-analysis of the deposited data

Results flagged for a closer look

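3 genes of the related lists were called between the exosome groups themselves, where none of the 10 immediate early genes was. Atf4 was higher with EKO-BMDM-exo than with WT-BMDM-exo by 0.506 on the log2 scale (edgeR adjusted p = 6.97e-08) and lay on opposite sides of PBS in the exosome groups, in 3 of 3 libraries each. Zfp36l1, the paralogue of Zfp36, was lower with EKO-BMDM-exo than with WT-BMDM-exo, at -0.219 (adjusted p = 0.00537), in 3 of 3 libraries. Fcgr1, the high-affinity IgG receptor, was lower with EKO-BMDM-exo as well, at -0.395 (adjusted p = 9.58e-06), with 92.4 ± 3.25 CPM in EKO-BMDM-exo and 121 ± 4.47 CPM in WT-BMDM-exo libraries (SD, n = 3 each). No cause was tested for any of them.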

How the results depend on the processing

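The member calls with WT-BMDM-exo (4) were the same under all 7 alternative settings and without each of the 9 libraries. With EKO-BMDM-exo 7 members were called in 6 of the 7 settings and 6 in the fit of the 6 libraries compared, and 4 to 6 with a library left out. The fewest came without PBS replicate 1 (1 higher and 3 lower). Members called between the exosomes stayed at 0 throughout. Over all genes, calls between the exosomes numbered 96, against 157 with DESeq2 and 52 to 109 with a library left out. They fell to 52 without EKO-BMDM-exo replicate 1, 56 without its replicate 2, 59 without WT-BMDM-exo replicate 2 and 56 without its replicate 3. Calls against PBS numbered 421 to 586 with EKO-BMDM-exo and 408 to 536 with WT-BMDM-exo when a library was left out. Values that changed sign were all uncalled: Zfp36 (-0.0422 to 0.00323 with a library left out), Junb (-0.0151 to 0.0479) and Fosb (-0.556 to 0.0300) between the exosomes, and Fosl2 (-0.0654 to 0.0180) and Jund (-0.119 to 0.0345) with WT-BMDM-exo. The cause was not tested. Of 42 calls of other listed genes, 24 held under every alternative.

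Same-numbered libraries correlated at -0.0334 to 0.0614 in their deviations from group means, and other pairs at -0.0696 to 0.0356. With 3 libraries a group, these values cannot decide whether the numbers pair the samples. With the replicate block, 662 genes were called for EKO-BMDM-exo against PBS, 669 for WT-BMDM-exo against PBS and 144 between the exosomes, with 7, 4 and 0 members. Without the block these fits called 585, 568 and 96 genes. Leaving a group with 2 libraries, all fits pooled the spread over groups. Depth was lowest for Fosb among the members, at 20 to 58 counts.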

Other observations

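Short-lived mRNAs known as targets of ZFP36 were looked at beside Zfp36 itself, which fell in both exosome groups. Of 12 such genes tested, 1 rose and 1 fell with EKO-BMDM-exo, and 2 rose and none fell with WT-BMDM-exo. That was 16.7% of the list in each comparison, where 4.23% and 4.11% of all genes were called. The median log2 fold change of the list was -0.47 with EKO-BMDM-exo and 0.14 with WT-BMDM-exo. Several of these genes averaged under 1 CPM, where fold changes are imprecise. Il1b, the gene of interleukin 1 beta, was at 1.34, 0.629 and 1.04 CPM with EKO-BMDM-exo, 2.50, 2.23 and 2.87 CPM with WT-BMDM-exo, and 4.49, 3.07 and 3.85 CPM with PBS. The groups did not overlap. Il1b fell with EKO-BMDM-exo by 1.91 ± 0.36 on the log2 scale (edgeR adjusted p = 0.000498), and its difference between the exosomes was -1.32 (adjusted p = 0.0841). Ccl3, a chemokine gene, rose by 0.34 ± 0.089 with EKO-BMDM-exo and 0.30 ± 0.089 with WT-BMDM-exo (adjusted p = 0.0147 and 0.0422). Plau, the gene of urokinase, rose with WT-BMDM-exo by 0.43 ± 0.095 (adjusted p = 0.00435). The call of Ccl3 with EKO-BMDM-exo ended without EKO-BMDM-exo replicate 1 or 3 or PBS replicate 2 (0.0570 to 0.158), and with WT-BMDM-exo without any of 7 libraries, all but EKO-BMDM-exo replicates 2 and 3 (0.0558 to 0.158), and under 2 other settings. That of Plau ended without PBS replicate 2 (0.0567). Summed neutrophil markers had a median of 11.1 CPM in EKO-BMDM-exo, 14.6 CPM in WT-BMDM-exo and 25.1 CPM in PBS libraries, with overlap between the exosome groups and between WT-BMDM-exo and PBS libraries, and none was called. Their part in the level of Il1b was not tested.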
